A study of Mus musculus with 16 samples.

Results

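The 10 genes of early lymphoid commitment studied here, Flt3, Il7r, Notch1, Dntt, Rag1, Rag2, Ikzf1, Satb1, Ebf1 and Pax5, were followed across 2 mouse bone marrow cell types and 2 genotypes. They were taken by name, not by a cut on their values, and make up 10 of the 29806 gene rows in the tables. The groups were MPP3 from Jak2V617F mice, MPP3 from wild-type (WT) mice, HSC from Jak2V617F mice and HSC from WT mice, with 4 libraries each. HSC are haematopoietic stem cells, and MPP3 are multipotent progenitors that lean towards myeloid output, here the fraction negative for Fcgr. Jak2V617F is an activating change in JAK2, the kinase that carries signals from many cytokine receptors. The labels give bone marrow as the tissue and no treatment, and the sources used here do not give the age, sex or strain of the mice, how the allele was introduced, its dose or the full sort gates. Nor do the labels say whether replicates are separate mice, and each p-value therefore reflects only how far these libraries vary, which may be technical. Gene counts do not show a base change, so the genotype labels could not be checked from them.

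Lymphoid priming is the low expression of lymphoid genes in multipotent cells before they commit. FLT3 is a receptor tyrosine kinase whose level rises in lymphoid-primed progenitors, IL-7 receptor alpha (Il7r) relays survival signals to early lymphocytes, and NOTCH1 directs progenitors towards the T lineage. RAG1 and RAG2 cut antigen receptor genes and terminal transferase (Dntt) adds bases at the joints, while Ikaros (Ikzf1) and SATB1 act early on lymphoid chromatin and EBF1 and PAX5 install and maintain the B lineage. In mouse marrow, MPP3 are usually sorted as cells with little surface FLT3, and the lymphoid-biased MPP4 as cells with much of it.

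The promoters of Flt3 and the 3 recombination genes, all of which rose in MPP3 over HSC of WT mice, are shown with matches to 3 short motifs of lymphoid regulators, because that of Rag1 holds all 3 motifs and those of Dntt and Rag2 hold none. Each line gives the 250 bases before the RefSeq transcript start in GRCm38.p6, 5′ to 3′ on the gene's strand, with matches in capitals. The windows are chr5:147400490-147400739 (minus strand) for Flt3, chr19:41029025-41029274 (plus) for Dntt, chr2:101649533-101649782 (minus) for Rag1 and chr2:101624462-101624711 (plus) for Rag2.
Flt3: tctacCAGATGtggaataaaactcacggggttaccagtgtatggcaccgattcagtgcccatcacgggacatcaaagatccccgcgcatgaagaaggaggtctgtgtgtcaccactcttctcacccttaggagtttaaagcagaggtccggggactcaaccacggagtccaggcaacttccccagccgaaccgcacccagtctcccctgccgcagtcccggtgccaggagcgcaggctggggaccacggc
Dntt: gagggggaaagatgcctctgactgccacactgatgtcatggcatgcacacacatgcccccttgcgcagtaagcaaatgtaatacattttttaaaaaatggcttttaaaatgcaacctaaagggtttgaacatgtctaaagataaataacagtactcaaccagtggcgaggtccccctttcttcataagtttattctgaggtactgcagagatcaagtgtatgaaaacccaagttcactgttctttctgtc
Rag1: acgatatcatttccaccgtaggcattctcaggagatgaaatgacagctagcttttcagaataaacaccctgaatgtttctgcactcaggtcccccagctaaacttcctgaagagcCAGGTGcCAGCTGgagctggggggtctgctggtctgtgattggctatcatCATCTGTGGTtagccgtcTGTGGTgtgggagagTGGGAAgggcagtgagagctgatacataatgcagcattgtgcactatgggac
Rag2: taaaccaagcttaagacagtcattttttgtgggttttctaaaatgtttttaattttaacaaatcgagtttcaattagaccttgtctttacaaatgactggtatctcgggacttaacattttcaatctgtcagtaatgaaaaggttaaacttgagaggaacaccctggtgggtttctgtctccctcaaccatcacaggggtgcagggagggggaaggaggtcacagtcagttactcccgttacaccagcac
The motifs were the E-box of the E2A type (CAGNTG, present in 44.8% of 32817 promoter windows of the same length), the Ikaros core (TGGGAA, 21.6%) and the RUNX core (TGTGGT, 14.0%), each on both strands. The Rag1 window held 3 E-boxes, starting 135, 128 and 85 bases before the start, 1 Ikaros core at 52 bases and 2 RUNX cores at 81 and 67 bases, and the E-box at 85 bases overlaps the RUNX core at 81. The Flt3 window held 1 E-box, at 245 bases. These matches are letters in a window and say nothing about binding. All 10 members had RefSeq windows, 16 in all. Of the members not shown, Il7r had 1 E-box, and among the Satb1 windows one had 2 E-boxes and another 1 Ikaros core. An Ebf1 window had 1 Ikaros core and another 1 RUNX core. The windows of Notch1, Ikzf1 and Pax5 had no match. The windows shown were picked with their matches known, and an excess of motifs in the members was not tested.

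In GRCm38 with GENCODE M21 names, all 10 are protein-coding genes: Flt3 at chr5:147330741-147400489, Dntt at chr19:41029275-41059525, Satb1 at chr17:51736187-51833290, Il7r at chr15:9505788-9530176, Rag1 at chr2:101638282-101649501, Rag2 at chr2:101624718-101632529, Notch1 at chr2:26457903-26516663, Ikzf1 at chr11:11685003-11772926, Ebf1 at chr11:44617317-45008091 and Pax5 at chr4:44524757-44710487. Rag1 and Rag2 are neighbours on opposite strands whose bodies do not overlap.

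Libraries held 33372210 to 41520158 estimated counts and 14439 to 16522 genes with a count, made from 7000 to 10000 cells with 12 to 15 PCR cycles. Levels are CPM (counts scaled to a common library size, here by TMM), given as mean ± SD over libraries, with n = 4 in each group. Tests are edgeR quasi-likelihood tests on all 16 libraries, with no term for the batch. A gene is called where the Benjamini-Hochberg adjusted p over the 14179 tested genes is under 0.05. Fold changes are on the log2 scale with their SE. Of 8 HSC markers, 5 were called lower in MPP3 than in HSC of Jak2V617F mice and 8 in WT mice. Of 8 MPP3 markers, 8 were called higher in Jak2V617F mice and 7 in WT mice. Jak2V617F HSC replicates 1 and 4 were more alike than any other pair of replicates (r = 0.971, where no pair of another group passed 0.948). Values without both are given where they change the call of a member. Of the 10 members, 9 passed the filter on low counts and Pax5 did not. Il7r and Rag1 had counts only in MPP3, and Rag2, Dntt and Ebf1 had few elsewhere, so these 5 passed through the cell type in which they are high and had to differ between cell types.

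Flt3, Dntt, Satb1, Ikzf1 and Ebf1 were higher in MPP3 than in HSC in both genotypes. Of the 9 tested members, 7 rose in MPP3 over HSC of Jak2V617F mice, where 3.69% of all tested genes rose and 4.68% fell, and 8 rose in WT mice, where 6.67% rose and 6.91% fell. No member fell. In bulk libraries, fewer cells that hold a transcript and less of it in each cell cannot be told apart. The MPP3 libraries lay above the HSC libraries without overlap for 6 members in each genotype, as they did for 6.14% of all tested genes in Jak2V617F mice and 9.25% in WT mice. These counts are not support for a difference, given how the sparse members came to be tested. Within MPP3, no member passed the test between Jak2V617F and WT mice, although 8 of 9 had a negative log2 fold change. In HSC, Notch1 and Satb1 were lower in Jak2V617F mice. The plot of CPM by library shows these patterns.

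**Figure D1:**
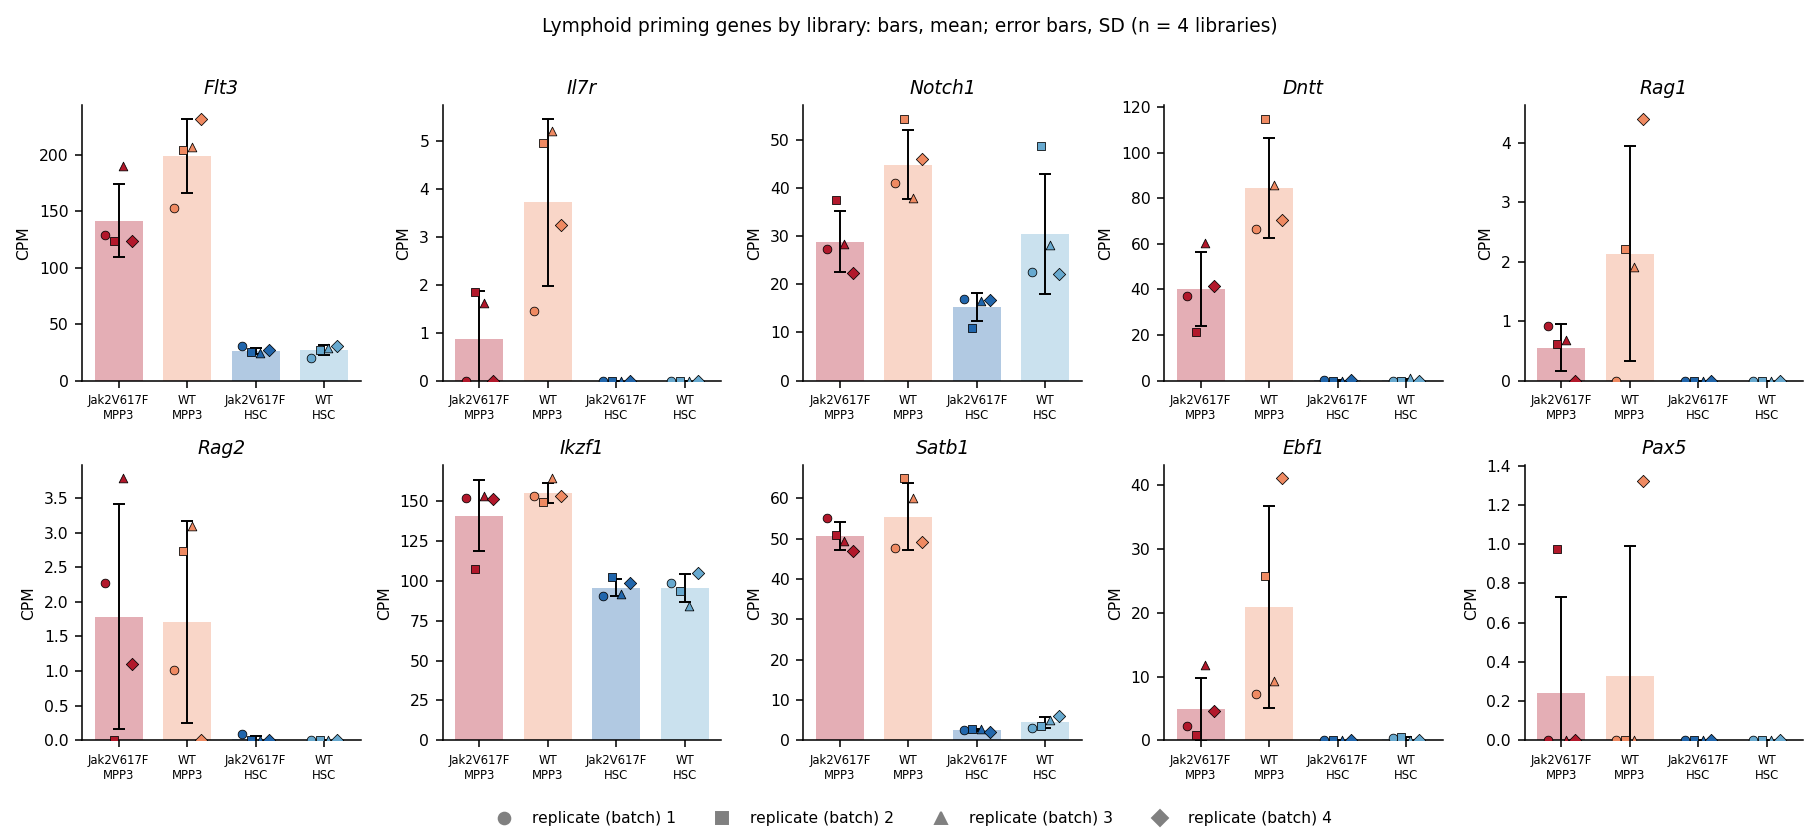
CPM of the 10 genes in each of the 16 libraries (points; the symbol gives the replicate, which is also the batch), with the group mean (bar) and SD (error bar, cut at 0 below). Il7r, Dntt, Rag1, Rag2, Ebf1 and Pax5 are at or under 1.2 CPM in all 8 HSC libraries, while Flt3, Notch1, Ikzf1 and Satb1 have counts in every library.

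Flt3 had 129, 124, 190.3 and 124 CPM in Jak2V617F MPP3, 153, 204, 207 and 232 CPM in WT MPP3, 30.3, 25.0, 24.2 and 26.9 CPM in Jak2V617F HSC, and 20.4, 27.2, 29.0 and 30.5 CPM in WT HSC. Every MPP3 library was above every HSC library. Flt3 rose in MPP3 over HSC by a log2 fold change of 2.42 ± 0.17 in Jak2V617F mice (5.33-fold, edgeR adjusted p = 8.15e-08) and 2.89 ± 0.17 in WT mice (7.43-fold, adjusted p = 1.13e-08). Between genotypes the MPP3 groups overlapped through Jak2V617F replicate 3, and the means were 142 ± 32.4 CPM in Jak2V617F MPP3 and 199 ± 33 CPM in WT MPP3 (SD, n = 4 each). The log2 fold change there was -0.49 ± 0.16 (edgeR adjusted p = 0.187), negative in 4 of 4 batches (-0.24, -0.73, -0.12 and -0.90). Without Jak2V617F MPP3 replicate 3 it was -0.65 (adjusted p = 0.0482), the only fit with 1 library left out that passed the threshold. In HSC the genotypes overlapped, at 26.6 ± 2.72 CPM in Jak2V617F HSC and 26.8 ± 4.47 CPM in WT HSC (log2 fold change -0.01 ± 0.16, edgeR adjusted p = 0.984).

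Il7r had 0, 1.84, 1.61 and 0 CPM in Jak2V617F MPP3, 1.45, 4.95, 5.20 and 3.24 CPM in WT MPP3, and no count in any of the 8 HSC libraries. A count of 0 allows a level of up to 0.0711 to 0.0842 CPM in these HSC libraries (3 counts), counting error only. Against that floor, Il7r was at least 11.2-fold higher in MPP3 than in HSC of Jak2V617F mice (edgeR adjusted p = 0.0458) and at least 46.8-fold higher in WT mice (adjusted p = 0.0141). The call in Jak2V617F mice was weak. With the replicate number as a block the adjusted p was 0.102, by limma-voom it was 0.316, with no filter on low counts it was 0.0510, and without Jak2V617F HSC replicates 1 and 4 it was 0.187. Without any 1 of the 4 Jak2V617F HSC libraries it was 0.0873 to 0.0961. Without Jak2V617F MPP3 replicate 2 or 3 it was 0.0913 and 0.0817, and without any 1 of the WT MPP3 libraries it was 0.0595 to 0.0690. In MPP3, Il7r averaged 0.863 ± 1.00 CPM in Jak2V617F mice and 3.71 ± 1.74 CPM in WT mice, overlapping in range (log2 fold change -2.10 ± 1.45, edgeR adjusted p = 0.576). In every batch the Jak2V617F value was the lower one.

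Notch1 was the only member with counts in all libraries whose MPP3 and HSC ranges overlapped in WT mice. It had 27.3, 37.4, 28.3 and 22.3 CPM in Jak2V617F MPP3, 41.0, 54.4, 37.9 and 46.1 CPM in WT MPP3, 17.0, 10.9, 16.5 and 16.8 CPM in Jak2V617F HSC, and 22.5, 48.7, 28.2 and 22.2 CPM in WT HSC. The Jak2V617F libraries lay below the WT libraries without overlap in each cell type, as for 3.48% of all tested genes in MPP3 and 7.60% in HSC. In MPP3 the nearest values were 37.4 CPM in Jak2V617F and 37.9 CPM in WT mice. In HSC, Notch1 averaged 15.3 ± 2.96 CPM in Jak2V617F mice and 30.4 ± 12.5 CPM in WT mice and fell by 0.99 ± 0.24 on the log2 scale (0.50-fold, edgeR adjusted p = 0.0201), with the lower value in the Jak2V617F library of all 4 batches (log2 ratios of -0.40, -2.16, -0.77 and -0.40). WT HSC replicate 2 was the highest by far, and without it the log2 fold change was -0.65 (adjusted p = 0.0878). The call was also lost without Jak2V617F HSC replicate 2 (adjusted p = 0.0742) or 4 (0.0505), without Jak2V617F HSC replicates 1 and 4 together (0.0989), and with only the HSC groups in the fit (0.0589). In MPP3 the log2 fold change was -0.64 ± 0.24 (edgeR adjusted p = 0.241), again negative in 4 of 4 batches (-0.59, -0.54, -0.42 and -1.05).

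Between cell types, Notch1 rose in MPP3 over HSC of Jak2V617F mice by 0.91 ± 0.24 (1.88-fold, edgeR adjusted p = 0.0254), without overlap. That call was lost without Jak2V617F HSC replicate 2, 3 or 4 (adjusted p = 0.0952, 0.0510 and 0.0546), without Jak2V617F MPP3 replicate 2 or 3 (0.0990 and 0.0509), and without Jak2V617F HSC replicates 1 and 4 together (0.0734). In WT mice the log2 fold change was 0.56 ± 0.24 (adjusted p = 0.143), and 0.88 (0.0133) without WT HSC replicate 2. The difference of the genotype effect between MPP3 and HSC was 0.35 ± 0.34 (edgeR adjusted p = 0.958).

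**Figure D2:**
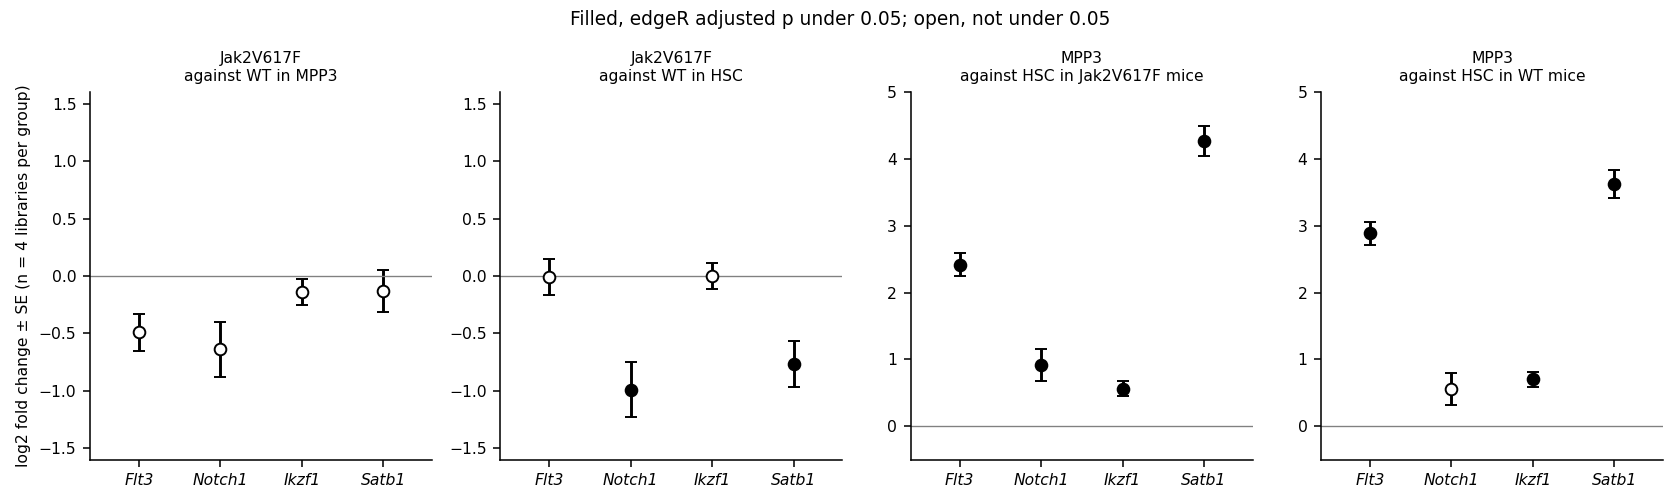
Log2 fold change ± SE (edgeR, n = 4 libraries per group) of the 4 members with counts in all libraries, in 4 comparisons; the scale of the 2 left panels differs from that of the 2 right ones. Filled points have an adjusted p under 0.05: Notch1 and Satb1 in HSC between genotypes, and every point between cell types except Notch1 in WT mice.

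Of all tested genes, 3.69% rose and 4.68% fell in MPP3 over HSC of Jak2V617F mice, and 6.67% rose and 6.91% fell in WT mice. Of the other genes of FLT3 and IL-7 receptor signalling, 1 of 17 rose and 1 fell in MPP3 over HSC of Jak2V617F mice, and likewise 1 and 1 in WT mice, with medians of 0.10 in Jak2V617F mice (0.00 over all tested genes) and 0.04 in WT mice (-0.01 over all). The genes called were the adaptor gene Grb2 (0.42 ± 0.12) and the ligand gene Flt3l (-1.24 ± 0.34) in Jak2V617F mice, and the shared receptor chain gene Il2rg (0.58 ± 0.18) and the kinase subunit gene Pik3r1 (-0.69 ± 0.17) in WT mice; of these 4, Pik3r1 in WT mice alone was called in all 26 alternatives. In HSC, 3 of 17 fell in Jak2V617F mice and none rose, with a median of -0.28 beside -0.06 over all tested genes. There, 2.74% of all tested genes fell and 4.56% rose. Pik3r1 had 79.2 ± 5.86 CPM in Jak2V617F HSC and 138 ± 19.9 CPM in WT HSC (-0.80 ± 0.17, edgeR adjusted p = 0.00774). Jak1 and Jak3, the kinases bound to the IL-7 receptor chains, had -0.40 ± 0.11 and -0.56 ± 0.16 (adjusted p = 0.0377 and 0.0432). These 3 calls were not firm, with adjusted p of up to 0.111, 0.235 and 0.363 over 26 alternatives. Of 21 tested Notch pathway genes, none was called between genotypes in HSC, where 2 had an unadjusted p under 0.05 and DESeq2 and limma-voom called 0. In MPP3 over HSC, 2 rose in Jak2V617F mice (the coactivator gene Maml3, 1.00 ± 0.25, and the gamma-secretase subunit gene Psenen, 0.33 ± 0.09). In WT mice Maml3 (1.20 ± 0.25) and the protease gene Adam17 (0.63 ± 0.17) rose and the glycosyltransferase gene Mfng fell by 0.48 ± 0.12. Of these 5 calls, that of Maml3 in WT mice was kept in all 26 alternatives and the others were not, with adjusted p of up to 0.218 (Maml3) and 0.201 (Psenen) in Jak2V617F mice and 0.0671 (Adam17) and 0.0580 (Mfng) in WT mice.

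Among the recombination genes, Dntt was abundant in MPP3 and nearly absent from HSC. It had 37.1, 21.2, 60.6 and 41.5 CPM in Jak2V617F MPP3 and 66.5, 115, 85.8 and 70.7 CPM in WT MPP3. In HSC it had 0.284, 0, 0 and 0.438 CPM in Jak2V617F mice and 0, 0, 1.20 and 0 CPM in WT mice. The log2 fold change of MPP3 over HSC was 7.71 ± 1.01 in Jak2V617F mice (edgeR adjusted p = 0.000121) and 8.11 ± 0.99 in WT mice (adjusted p = 5.31e-05), called in all 26 alternatives. With each library left out it was 7.30 to 8.54 in Jak2V617F mice, highest without Jak2V617F HSC replicate 4, and 7.69 to 14.64 in WT mice. The 14.64 came without WT HSC replicate 3, the only WT HSC library with a count, and is no bound; against the floor, Dntt was then at least 1062-fold higher in WT MPP3. In MPP3 each Jak2V617F library lay below each WT library, as did 3.48% of all tested genes, with means of 40.1 ± 16.2 CPM in Jak2V617F MPP3 and 84.6 ± 22.1 CPM in WT MPP3. The fold change of -1.08 ± 0.69 did not pass the test (0.47-fold, edgeR adjusted p = 0.534; 0.0716 by limma-voom, 0.856 by DESeq2). Its within-batch log2 ratios were -0.84, -2.44, -0.50 and -0.77. The spread of Dntt in MPP3 (coefficient of variation 40.4% in Jak2V617F and 26.2% in WT MPP3) exceeded that of Flt3 (22.9% and 16.6%).

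Rag1 had 0.920, 0.614, 0.690 and 0 CPM in Jak2V617F MPP3, 0, 2.22, 1.91 and 4.41 CPM in WT MPP3, and no count in HSC. Rag2 had 2.27, 0, 3.78 and 1.10 CPM in Jak2V617F MPP3 and 1.01, 2.73, 3.10 and 0 CPM in WT MPP3; in HSC it had 0.0948 CPM in Jak2V617F replicate 1 (4 counts) and no other count. The libraries without a count differed between the pair: Rag1 was at 0 in Jak2V617F MPP3 replicate 4 and WT MPP3 replicate 1, and Rag2 in Jak2V617F MPP3 replicate 2 and WT MPP3 replicate 4. In WT mice both rose in MPP3 over HSC, Rag1 at least 27.0-fold (edgeR adjusted p = 0.0226) and Rag2 at least 21.6-fold (adjusted p = 0.0225). With the replicate number as a block Rag1 was not called (adjusted p = 0.0657), and without WT HSC replicate 2 Rag2 was not (0.0523); by limma-voom they had 0.105 and 0.212.

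In Jak2V617F mice, Rag1 and Rag2 had edgeR adjusted p = 0.0685 and 0.0775 in MPP3 over HSC. DESeq2 called both (0.00872 and 0.0108). Rag1 was called without Jak2V617F MPP3 replicate 4 (0.0428) or WT MPP3 replicate 1 (0.0293), and Rag2 without Jak2V617F MPP3 replicate 2 (0.0445) or WT MPP3 replicate 4 (0.0451). Between genotypes in MPP3, Rag1 had a difference of -1.94 ± 1.53 in log2 units (edgeR adjusted p = 0.647), and Rag2 one of 0.06 ± 1.5 (adjusted p = 1). Rag2 was the one tested member with a positive value there.

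Il7r, Rag1 and Pax5 had either no count in a library or at least 22. Where present, Il7r had 50 to 196 estimated counts in 6 libraries, Rag1 22 to 180 in 6, and Pax5 35 and 54 in 2, while Rag2 had 4 to 148 in 7. Counts are copies after PCR and not independent molecules, so the floors cover counting error of reads alone.

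Genes that join the RAG cuts were compared between cell types, where 3.69% of all tested genes rose and 4.68% fell in Jak2V617F mice. In WT mice 6.67% of all tested genes rose and 6.91% fell. Of 13 genes of V(D)J joining and end repair, none was called higher in MPP3 over HSC of Jak2V617F mice (5 had an unadjusted p under 0.05 in either direction; DESeq2 called 2 and limma-voom 1) and 1 fell, the polymerase gene Polm (0.187 ± 0.324 CPM in Jak2V617F MPP3, against 4.79 ± 1.5 CPM in Jak2V617F HSC; edgeR adjusted p = 0.00345). Polm was low in Jak2V617F MPP3 alone, with 4.51 ± 1.95 CPM in WT MPP3 and 5.78 ± 1.66 CPM in WT HSC. Between genotypes in MPP3 it had at most 0.67 CPM in Jak2V617F and at least 2.89 CPM in WT libraries. Such a lack of overlap held for 3.48% of all tested genes, and edgeR did not call Polm there. In WT mice 3 rose and none fell: Hmgb2 (0.72 ± 0.09), Hmgb1 (0.48 ± 0.11) and the Ku subunit gene Xrcc6 (0.47 ± 0.15). The chromatin protein genes Hmgb2 and Hmgb1 were also higher in Jak2V617F than in WT HSC (0.83 ± 0.09 and 0.47 ± 0.11, edgeR adjusted p = 0.000163 and 0.0169). Over 26 alternatives the adjusted p of Hmgb1 in HSC went up to 0.263 and that of Xrcc6 in WT mice up to 0.140, and the others of these calls held. HMGB proteins assist RAG cutting and are also general chromatin proteins.

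Ikzf1 had counts in every library and the smallest difference between cell types among the members called in both genotypes. It had 152, 107, 153 and 151 CPM in Jak2V617F MPP3, 153, 149.5, 164 and 153 CPM in WT MPP3, 90.3, 102, 91.7 and 98.7 CPM in Jak2V617F HSC, and 98.4, 93.6, 84.1 and 105 CPM in WT HSC. All MPP3 libraries lay above all HSC libraries, by a log2 fold change of 0.56 ± 0.11 in Jak2V617F mice (1.47-fold, edgeR adjusted p = 0.00301) and 0.70 ± 0.11 in WT mice (1.62-fold, adjusted p = 0.000327). The genotypes overlapped in both cell types, with -0.14 ± 0.11 in MPP3 (edgeR adjusted p = 0.641) and 0.00 ± 0.11 in HSC (adjusted p = 0.996).

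Satb1 had 55.2, 50.9, 49.4 and 46.8 CPM in Jak2V617F MPP3, 47.7, 64.9, 60.0 and 49.2 CPM in WT MPP3, 2.63, 2.95, 2.72 and 2.17 CPM in Jak2V617F HSC, and 3.05, 3.64, 5.07 and 6.09 CPM in WT HSC. It rose in MPP3 over HSC by 4.27 ± 0.22 in Jak2V617F mice (19.33-fold, edgeR adjusted p = 1.98e-09) and 3.63 ± 0.21 in WT mice (12.40-fold, adjusted p = 7.56e-09). The genotypes overlapped in MPP3 (-0.13 ± 0.18, edgeR adjusted p = 0.834). In HSC they did not overlap, and Satb1 fell by 0.77 ± 0.20 on the log2 scale, with 2.62 ± 0.327 CPM in Jak2V617F HSC and 4.46 ± 1.38 CPM in WT HSC (0.59-fold, edgeR adjusted p = 0.0236). In TPM, which allow for transcript length, the ranges overlapped, at 0.731 to 1.26 TPM in Jak2V617F HSC and 1.19 to 2.42 TPM in WT HSC. This call was lost without Jak2V617F HSC replicate 1 (adjusted p = 0.0618) or 4 (0.0941), without both (0.231), without WT HSC replicate 3 (0.0663) or 4 (0.0857), with only the HSC groups in the fit (0.227) and by limma-voom (0.230). Within batches the log2 ratio was -0.21, -0.30, -0.90 and -1.49. The genotype effect in MPP3 minus that in HSC was 0.64 ± 0.27 and did not pass the test (edgeR adjusted p = 0.644).

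In all, 2 of 9 tested members fell and none rose in Jak2V617F HSC, where 2.74% of all tested genes fell and 4.56% rose. Both were without overlap between genotypes, as were 7.60% of all tested genes in that direction. The HSC marker genes moved beside them: 4 of 8 fell in Jak2V617F HSC and none rose, with a summed level of 429 to 495 CPM in Jak2V617F HSC and 674 to 832 CPM in WT HSC and no marker at 0. Without Jak2V617F HSC replicates 1 and 4 the calls of the markers Procr and Fgd5 were lost (edgeR adjusted p = 0.154 and 0.0924). That of Fgd5 was also lost without Jak2V617F HSC replicate 2 (0.0569) or 4 (0.0629), or without WT HSC replicate 2 (0.0673). Of the 8 MPP3 markers, 1 rose (Cd48, 6.74 ± 1.71 CPM in Jak2V617F HSC and 2.5 ± 0.769 CPM in WT HSC) and 1 fell. The one that fell was Prtn3 (218 ± 60 CPM in Jak2V617F HSC and 349 ± 27.9 CPM in WT HSC). Without Jak2V617F HSC replicates 1 and 4 its edgeR adjusted p was 0.218. The Prtn3 call was also lost without Jak2V617F HSC replicate 1 (0.07), 2 (0.0726) or 4 (0.0587), or without WT HSC replicate 4 (0.0579). Of the 8, 6 had a negative log2 fold change, with a median of -0.74 beside -0.06 over all tested genes. Prtn3 made up most of the sums, 181 to 347 CPM in Jak2V617F HSC and 349 to 419 CPM in WT HSC. The part of this shift in the Notch1 and Satb1 results was not tested.

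Ebf1 varied more between libraries than any other member with counts in all MPP3 libraries. It had 2.24, 0.838, 11.8 and 4.57 CPM in Jak2V617F MPP3 and 7.29, 25.8, 9.29 and 41.1 CPM in WT MPP3. In HSC it had no count in the 4 Jak2V617F libraries and 0.361, 0.566, 0 and 0 CPM in the WT libraries. The highest library held 14.1 times the lowest in Jak2V617F MPP3 and 5.64 times in WT MPP3, where Satb1 had 1.18 and 1.36. Ebf1 rose in MPP3 over HSC at least 63.1-fold in Jak2V617F mice (edgeR adjusted p = 0.00194; 0.0747 by limma-voom) and by a log2 fold change of 6.49 ± 1.20 in WT mice (adjusted p = 0.00231). Without Jak2V617F MPP3 replicate 3 the fold in Jak2V617F mice was at least 33.1, and without WT HSC replicate 2 the log2 fold change in WT mice was 7.44 (5.92 to 7.44 with each library left out). In MPP3 the genotypes overlapped through Jak2V617F replicate 3, with 4.86 ± 4.87 CPM in Jak2V617F MPP3 and 20.9 ± 15.8 CPM in WT MPP3 and a log2 fold change of -2.10 ± 0.95 (0.23-fold, edgeR adjusted p = 0.349). With each library left out it was -3.01 to -1.54, at -3.01 without Jak2V617F replicate 3 and at -1.54 without WT replicate 4, and was not called in any of these fits. The Jak2V617F library was the lower one in 3 of 4 batches. In HSC, where the Jak2V617F group was at 0 and at least 3.01-fold lower than WT, edgeR gave adjusted p = 0.104 and DESeq2 0.0116.

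Pax5 was found in 2 libraries, with 0.977 CPM in Jak2V617F MPP3 replicate 2 and 1.32 CPM in WT MPP3 replicate 4, and was not detected in the other 14. With 1 library with a count in each MPP3 group, no test could tell the groups apart.

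Transcripts of early B cells also varied across the MPP3 libraries, as the plot of B lineage genes by library shows. Of the 12 B cell markers, Cd79b and Cd72 were the abundant ones in HSC, at 53.1 CPM or more and 35.8 CPM or more in each HSC library. The other 10 summed to 7.30, 13.1, 41.6 and 9.66 CPM in Jak2V617F MPP3 and 34.2, 106, 61.4 and 119.6 CPM in WT MPP3, against 0.673 to 1.39 CPM in Jak2V617F HSC and 2.02 to 3.20 CPM in WT HSC. The libraries with most Ebf1 in each MPP3 group, Jak2V617F replicate 3 and WT replicate 4, also had the highest sum. The whole list summed to 151 to 232 CPM in Jak2V617F MPP3, 204 to 322 CPM in WT MPP3, 89.6 to 117 CPM in Jak2V617F HSC and 119 to 147 CPM in WT HSC. No marker was at 0 throughout an MPP3 group. Among the markers at 0 were Blk, Vpreb1 and Vpreb2 in all HSC libraries and Igll1 in all Jak2V617F HSC libraries. The part of B lineage cells in the levels of Ebf1, Il7r, Rag1 and Dntt was not tested.

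**Figure D3:**
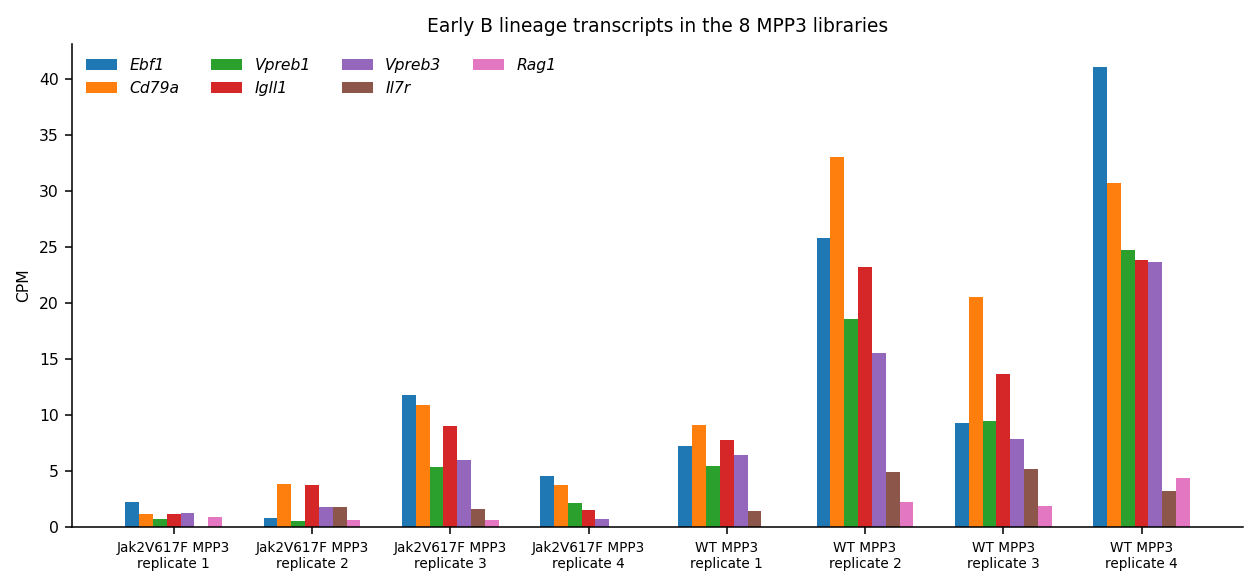
CPM of Ebf1, 4 B cell markers, Il7r and Rag1 in the 8 MPP3 libraries. Among the Jak2V617F libraries Ebf1 is highest in replicate 3 (11.8 CPM), and among the WT libraries in replicates 4 and 2 (41.1 and 25.8 CPM).

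Of 10 tested B cell markers, 7 rose in MPP3 over HSC in each genotype. The share of all tested genes that rose was 3.69% in Jak2V617F mice and 6.67% in WT mice. Markers with no count in HSC, such as Vpreb1, passed the filter through MPP3 and had to differ between cell types. Cd79a, a signalling chain of the B cell receptor, had 4.95 ± 4.15 CPM in Jak2V617F MPP3 and 23.4 ± 10.9 CPM in WT MPP3, against 0.02 ± 0.04 CPM in Jak2V617F HSC and 0.217 ± 0.333 CPM in WT HSC. The surrogate light chain gene Igll1 had 3.91 ± 3.63 CPM in Jak2V617F MPP3 and 17.2 ± 7.76 CPM in WT MPP3. Between genotypes in MPP3, none of the 10 was called by edgeR or limma-voom (1 by DESeq2), 5 had an unadjusted p under 0.05, and all 10 had a negative log2 fold change, with a median of -1.68 beside -0.02 over all tested genes. Of all tested genes, 13.8% had an unadjusted p under 0.05 and 52.8% a negative log2 fold change. The lowest adjusted p were those of Cd79b (-0.40 ± 0.12, edgeR adjusted p = 0.156) and Vpreb1 (-2.70 ± 0.76, adjusted p = 0.157; down to 0.0181 over 26 alternatives).

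Of 10 tested T and NK cell markers, 2 rose in MPP3 over HSC in each genotype. Over all tested genes, 3.69% rose in Jak2V617F mice and 6.67% in WT mice. Trbc1, a T cell receptor constant gene, had 9.46 ± 4.15 CPM in Jak2V617F MPP3, 20.4 ± 3.55 CPM in WT MPP3 and no count in HSC. Trbc2 was the other marker that rose. These 2 genes are near-copies, as are Vpreb1 and Vpreb2, and how reads were split between copies is uncertain. The 14 markers summed to 10.5 to 27.1 CPM in Jak2V617F MPP3, 39.8 to 56.0 CPM in WT MPP3, 6.73 to 18.0 CPM in Jak2V617F HSC and 16.1 to 32.1 CPM in WT HSC. Trac was at 0 in all MPP3 libraries and Cd3e in all WT MPP3 and all HSC libraries. Of the dendritic and plasma cell markers, Jchain had at most 0.384 CPM in Jak2V617F MPP3 and 0, 106, 37.2 and 10.7 CPM in WT MPP3. Jchain does not stand for its list: between genotypes in MPP3, 4 of 8 tested genes had a negative log2 fold change and none was called. The list summed to 9.71 to 21.9 CPM in Jak2V617F MPP3, 19.5 to 136 CPM in WT MPP3, 9.94 to 19.8 CPM in Jak2V617F HSC and 11.8 to 28.4 CPM in WT HSC. Most of the 136 CPM, in WT MPP3 replicate 2, was Jchain. Siglech and Cd209a were at 0 in Jak2V617F MPP3 and in all HSC.

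Other lymphoid transcription factor genes moved in both directions between cell types. Of 24 tested, 8 rose and 2 fell in MPP3 over HSC of Jak2V617F mice, and 8 rose and 5 fell in WT mice, with medians of 0.31 and 0.45. Over all tested genes, 3.69% rose and 4.68% fell in Jak2V617F mice, and 6.67% rose and 6.91% fell in WT mice. Sox4 had 139.6 ± 20.0 CPM in Jak2V617F MPP3 and 66.1 ± 5.78 CPM in Jak2V617F HSC (1.08 ± 0.12, edgeR adjusted p = 1.51e-05), and Myb, needed in early lymphoid and stem cells, rose by 0.79 ± 0.09. Ikzf2, a relative of Ikaros, rose by 1.21 ± 0.18 in Jak2V617F and 0.97 ± 0.18 in WT mice. Mef2c, a factor that favours lymphoid over myeloid fate, fell by 0.81 ± 0.11 in Jak2V617F mice and by 0.55 ± 0.11 in WT mice. Of 17 lymphoid surface and early genes, 8 rose and none fell in each genotype, among them Cd53 (2.46 ± 0.26 in Jak2V617F and 3.16 ± 0.27 in WT mice) and Ly6d, a mark of B-biased lymphoid progenitors (3.23 ± 1.52 CPM in Jak2V617F MPP3, 9.46 ± 6.96 CPM in WT MPP3 and no count in HSC). Genes with few or no counts in HSC, such as Ly6d, passed the filter through MPP3 and had to differ between cell types.

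In HSC between genotypes, 1 of the 24 factor genes rose in Jak2V617F mice, Runx3 (0.60 ± 0.15, edgeR adjusted p = 0.0226; up to 0.0989 over 26 alternatives), and 2 fell, Id2 (-1.29 ± 0.24, adjusted p = 0.00406) and the T cell and stem cell factor gene Gata3 (-0.80 ± 0.19, adjusted p = 0.0148; up to 0.235). Cd53 was the only surface gene of 17 called there (1.31 ± 0.26, adjusted p = 0.00514), and Cd79b the only B cell marker of 10 (-0.42 ± 0.12, adjusted p = 0.0414; up to 0.258 over 26 alternatives). Over all tested genes in HSC, 4.56% rose and 2.74% fell in Jak2V617F mice. In MPP3 between genotypes, none of the 10 wider lists had a gene called by edgeR or limma-voom, and DESeq2 called 7 genes over 6 of the lists. Of the factor genes 19 of 24, and of the surface genes 14 of 17, had a negative log2 fold change there, with medians of -0.31 and -0.26, and 5 of each had an unadjusted p under 0.05. The shares over all tested genes were 52.8% with a negative log2 fold change and 13.8% with an unadjusted p under 0.05.

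For the genotype effect in MPP3, 0 of 9 members were called by edgeR, DESeq2 or limma-voom, where edgeR called 0.0635% of all tested genes. Of the 9, 3 (Flt3, Notch1 and Ebf1) had an unadjusted p under 0.05 (0.00764, 0.0173 and 0.0449), as did 13.8% of all tested genes, and 8 of 9 had a negative log2 fold change, as did 52.8% of all tested genes. The median over the 9 was -0.64, beside -0.02 over all tested genes. Dntt and Notch1 had no overlap between genotypes, with Jak2V617F lower, as had 3.48% of all tested genes. For the difference of the genotype effect, MPP3 minus HSC, 0 of 9 were called by edgeR, DESeq2 or limma-voom (0.0423% of all tested genes by edgeR), and 1, Satb1, had an unadjusted p under 0.05, as did 6.93% of all tested genes. A genotype effect that differs between HSC and MPP3 was not shown for any member.

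Levels of different genes can be set beside each other only per length, which TPM (counts scaled by transcript length and library total) allow. In Jak2V617F MPP3, Flt3 had 46.9 ± 12.2, Ikzf1 42.6 ± 9.08, Dntt 23.0 ± 9.89 and Satb1 18.7 ± 0.769 TPM, each overlapping the next, and then came Notch1, Ebf1, Rag2, Il7r, Pax5 and Rag1, from 3.69 ± 0.628 TPM down. In WT MPP3 the order was Flt3 (68.3 ± 13.9 TPM), Ikzf1 (50.8 ± 5.24), Dntt (49.8 ± 11.5), Satb1 (19.7 ± 3.34), Ebf1 (8.31 ± 6.68), Notch1 (5.75 ± 0.841), Il7r (1.73 ± 0.788), Rag2, Rag1 and Pax5. The ranges of neighbours in WT MPP3 overlapped except between Dntt and Satb1 and between Notch1 and Il7r. In both HSC groups the order was Ikzf1, Flt3, Notch1 and Satb1 with no overlap of ranges between neighbours, from 30.1 ± 2.02 to 0.976 ± 0.221 TPM in Jak2V617F HSC and from 28.6 ± 3.62 to 1.75 ± 0.645 TPM in WT HSC, and the other 6 were under 1 TPM in every HSC library.

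**Figure D4:**
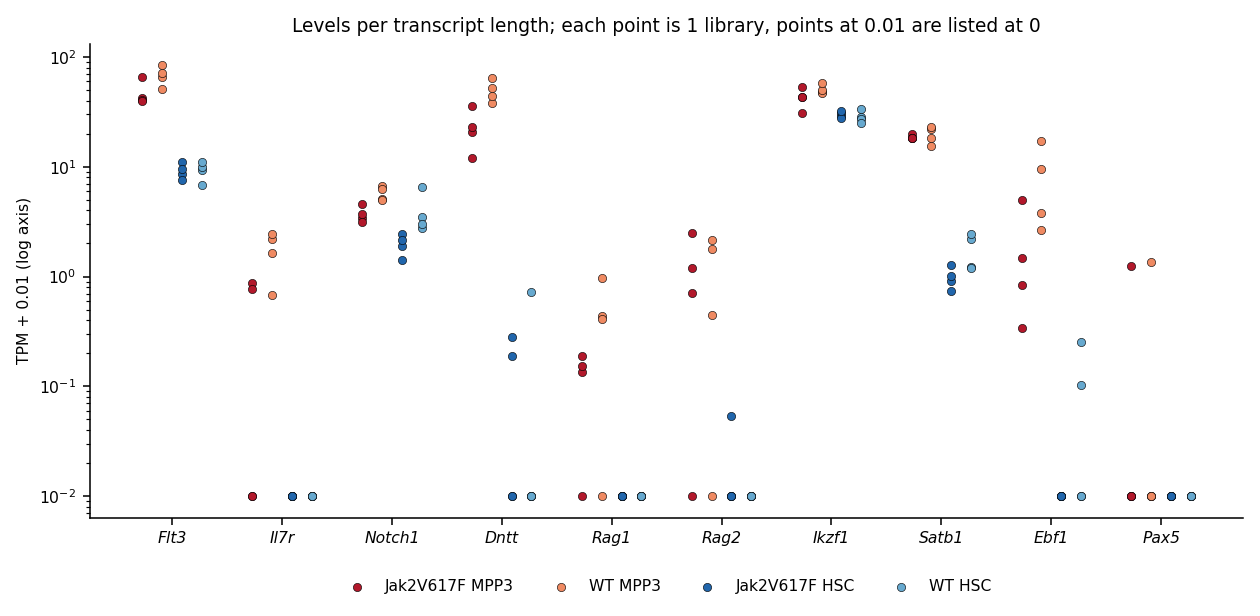
TPM of the 10 genes in each library, with 0.01 added and a log axis, in 4 columns per gene for the 4 groups. Dntt stands at 12.1 to 64.8 TPM in MPP3 beside Flt3 and Ikzf1, and at 0.719 TPM or less in HSC.

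The genes most like the 6 members with a mean of at least 5 CPM were found by Pearson's r of log2 CPM over the 16 libraries, among 9743 genes. Flt3 was most like Trbc1 (r = 0.99), Padi2 and Igll1 (0.97 each), and Satb1 most like Ctsg (0.99), Akna and Trbc1 (0.98 each). Dntt was most like Cep85, Trf and Cd34 (0.96 each), and Ebf1 most like Cnbd2 (0.94), Csf1r and Chdh (0.93 each). Ikzf1 was most like Ubash3a (0.94) and Cnbd2 (0.93), and Notch1 most like Arid4a (0.87), Ano10 (0.86) and Fcer1g (0.85). The 16 points fall into 4 groups, which part by cell type for all of these members but Notch1. The values of the members other than Notch1 describe that pattern. For Notch1 the cell types overlapped in WT mice.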

How the data were processed

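RNA from sorted mouse marrow cells was measured in 16 libraries, made per the labels with a SMARTer Ultra Low kit from 10 ng of RNA and read as 150-base pairs. The submitters' processing notes name cutadapt 4.0, FastQC, HISAT2, Salmon and GRCm38 (mm10), with no roles. These sources state neither the transcript set nor the strand setting. The deposited tables hold Salmon's estimated counts per gene (expected counts, not normalized), which were tested after rounding to whole numbers. The authors' TPM, which account for transcript length, served to order genes. Per the file headers, the tables also give effective lengths, used in 1 alternative.

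Gene rows (29806 of 31716; 79 without a symbol) were named with GENCODE M21; the 1910 transcript rows, at most 0.796% of counts, held no member. In R 4.3.3, edgeR 4.0.16 (filterByExpr by group, TMM, glmQLFit robust, glmQLFTest) fitted 1 coefficient per group over all 16 libraries for 5 comparisons, and SE is the log2 fold change over the square root of F. Log2 CPM used a prior count of 2, and folds against a group with no counts used a floor of 3 counts per library. Pax5, under the filter, is given as CPM; an exact permutation test of it was run but had too few libraries with a count to tell groups apart. Library totals of 33372210 to 41520158 counts set the depth. The code was tested on simulated data.

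Per the labels, the replicate number is the batch. The main tests did not pair libraries of 1 number, and a block for that number was an alternative only. Over 24 pairs of libraries of 1 number, the deviations from the group mean had r of -0.03 to 0.16, with 5 over 0.1. Alternatives were that block, DESeq2 1.42.0, RLE scaling, voom in limma 3.58.1, no filter, the groups compared alone, effective-length offsets, no haemoglobin, rRNA or mitochondrial genes, transcript rows added, each library left out, and Jak2V617F HSC replicates 1 and 4 left out; for Pax5, log2(CPM + 1) was tried. The text names all 10 members, up to 4 genes of each of 10 wider lists per comparison by smallest adjusted p, cell markers, and the 3 most alike genes per member; markers named for being at 0 were chosen after their values were seen. The members, lists and tests were chosen with earlier results of these data known. Values of some genes of the wider lists are not reported here.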

Additional observations from a re-analysis of the deposited data

Results flagged for a closer look

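Among 56 groups of 4 values checked, 9 had 1 library set apart from the other 3 by Dixon's test, which chance alone does in about 1 in 20 groups. That rate is for evenly measured values. Where only 1 library has a count, the test flags it whatever its size, so the 9 cannot be set against that rate. In Jak2V617F MPP3 these were Flt3 in replicate 3 (190.3 CPM, highest), Ikzf1 in replicate 2 (107 CPM, lowest), Pax5 in replicate 2 (0.977 CPM, the only one with a count) and the summed B cell markers without Cd79b and Cd72 in replicate 3 (41.6 CPM, highest). In WT MPP3, Pax5 in replicate 4 (1.32 CPM) was the only one with a count. In Jak2V617F HSC these were Notch1 in replicate 2 (10.9 CPM, lowest), Rag2 in replicate 1 (0.0948 CPM, the only one with a count) and the sum of all 12 B cell markers in replicate 2 (89.6 CPM, lowest). In WT HSC, Dntt in replicate 3 (1.20 CPM) was the only one with a count.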

How the results depend on the processing

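The 7 and 8 members called in MPP3 over HSC became 5 to 9 and 6 to 8 over all alternatives; with each library left out they were 5 to 8 in Jak2V617F mice and 8 in WT mice. The replicate block changed the call of Il7r in Jak2V617F mice (adjusted p = 0.102) and of Rag1 in WT mice (0.0657) and of no other member. The 2 members called in Jak2V617F HSC became 0 without Jak2V617F HSC replicates 1 and 4, 0 with the groups compared alone, 1 by limma-voom, 3 by DESeq2 (Ebf1 added), and 0 to 2 with each library left out. The 0 called between genotypes in MPP3 became 0 to 1. The cause was not tested. Values without a call changed sign as follows. The Flt3 log2 fold change in HSC was 0.02 alone, 0.02 without the filter, 0.01 with the replicate block, and -0.09 to 0.07 with each library left out; that of Ikzf1 was -0.05 to 0.06. Dntt in HSC reversed by limma-voom (adjusted p = 0.893) and without WT HSC replicate 3 (0.123; 0.123 to 0.952 with each library left out), and Rag2 in MPP3 in 4 of 16 such fits (adjusted p 0.928 to 1). The Pax5 difference between genotypes in MPP3 was -0.331 to 0.244 CPM with each library left out. Of 3027 values for 117 single-gene results, 2815 kept direction and side of the threshold. Scalings moved the median of all genes by at most 0.01. Il7r, Rag1, Rag2 and Pax5 had no count in 10, 10, 9 and 14 of the 16 libraries.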
